A study of Rattus norvegicus with 172 samples.

Results

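The subunits of the oxidative phosphorylation system were followed in dentate granule cells, the main output neurons of the hippocampal dentate gyrus, in 4 rat models of epilepsy. Members were taken by name: every probe set with 1 gene symbol that matched Nduf*, Sdha to Sdhd, Uqcr*, Cyc1, Cox4i*, Cox5*, Cox6*, Cox7*, Cox8* or Atp5*, with the brightest probe set standing for its gene. This gave 97 probe sets and 87 genes, of 14217 genes on the array with a probe set of 1 symbol. They comprised 34 genes of complex I, 4 of complex II, 8 of complex III, 19 of complex IV, 16 of complex V, and 6 genes named Ndufaf that encode assembly factors of complex I rather than subunits. Ndufa4 and Ndufa4l2 were counted with complex IV. Of the 87, 82 were bright enough to be tested, among 10761 genes tested in all. Cox7a2, Atp5mc1, Atp5mc2, Uqcrb, Ndufs5 and Ndufa10 were not tested, because their probe sets carried several symbols. So did the brightest probe set for Cox5a, which was tested through a dimmer one.

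Oxidative phosphorylation takes place in the inner mitochondrial membrane. Complex I accepts electrons from NADH and complex II from succinate, complex III passes them on to cytochrome c, and complex IV hands them to oxygen. Complexes I, III and IV pump protons out of the matrix, and complex V, the ATP synthase, uses their return to make ATP. Most subunits are encoded in the nucleus and imported, while some core subunits of all complexes but II come from mitochondrial DNA and carry none of the symbols used here. In neurons most of this ATP pays for ion pumping and synaptic transmission, which is why seizures place a load on the system.

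The arrays measured RNA of granule cells cut by laser from the brains of 164 male Sprague-Dawley rats, each on its own array or, for 8 rats, on 2. Status epilepticus (SE), a seizure that does not stop by itself for a long time, was induced in 3 models, and rats were killed 1, 3 or 10 days later. Pilocarpine, a cholinergic agonist, was given at 300 to 350 mg/kg after methylscopolamine and SE was stopped with pentobarbital after 90 min, in laboratories A and B. Their controls received methylscopolamine as well, with saline in place of pilocarpine. Kainate, a glutamate receptor agonist, was given in hourly doses of 5 mg/kg. In kainate laboratory A the seizures ended on their own after 6 to 8 h. Laboratory B began with 7.5 mg/kg and ended SE with pentobarbital at 90 min. Self-sustaining status epilepticus (SSSE) came from 1 laboratory, and kindling, a course of repeated brief electrical stimulation with ever stronger seizures, from laboratories A and B, with rats taken at seizure stage 2, 4 or 5. Controls of SSSE and kindling are labelled as such with no further detail used here. Each laboratory had its own controls, and every group held 6 rats, except that SSSE had 5 rats at day 3, 4 at day 10 and 5 controls.

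Values are the deposited array signals as log2(signal + 16), called the log2 level here, and a change is the difference in mean log2 level between a time or stage and that laboratory's own controls, taken as the mean of a model's laboratories. A gene was called changed where limma's moderated test gave a Benjamini-Hochberg adjusted p under 0.05 over all 10761 genes. Levels of different probe sets cannot be set against each other. The median signal per rat lay between 27.9 and 50.2. Granule cell markers were bright: the summed signal of the 13 listed markers on the array was 5510 to 11400 in day 1 rats of the SE models, against 11500 to 17500 in their controls. Of the 12 markers tested, 11 fell at day 1 after pilocarpine and 11 after kainate. Markers listed for other cells gave signal too, with summed signals at day 1 and in the controls of 2710 to 8760 and 5010 to 13200 for astrocytes, 799 to 7200 and 945 to 17200 for oligodendrocytes, and 865 to 6710 and 951 to 6170 for interneurons. The interneuron sum came mostly from Gad1, with a mean log2 level of 11.17. The other listed interneuron markers had 4.89 (Gad2, not tested) to 7.60 (Cck), so the sum is no measure of interneurons as a whole. The sum over 12 microglial markers was 161 to 742 at day 1 and 144 to 450 in the controls, and 5 of the 9 tested rose after pilocarpine and 5 after kainate. In such pooled cells, fewer cells of a type and less RNA per cell cannot be told apart. The part of these shifts in the changes of the members was not tested. The labels of SSSE day 1 rat 3 disagreed between day 1 and control; it was kept at day 1, and without it 2 members were called there rather than 4.

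Few members changed in any model. At day 1 after pilocarpine, 5 members rose and 6 fell of 82, and 71 did not pass. Among all genes 32.1% were called in that comparison, 15.8% higher and 16.3% lower. At day 1 after kainate, 9 members rose and 7 fell, beside 41.6% of all genes, 22.2% higher and 19.4% lower. At day 1 of SSSE, 4 members rose and none fell by limma, with 12.5% of all genes called, 5.51% higher and 7.02% lower. With all 28 groups in 1 fit the called members were 20 after pilocarpine and 1, Ndufc2, in SSSE. The share of all genes called in that fit is not given here, so these counts cannot be set against it. The median change over the 82 members was 0.01 after pilocarpine, -0.01 after kainate and 0.09 in SSSE, and over all genes tested it was 0.00, 0.02 and 0.00.

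**Figure D1:**
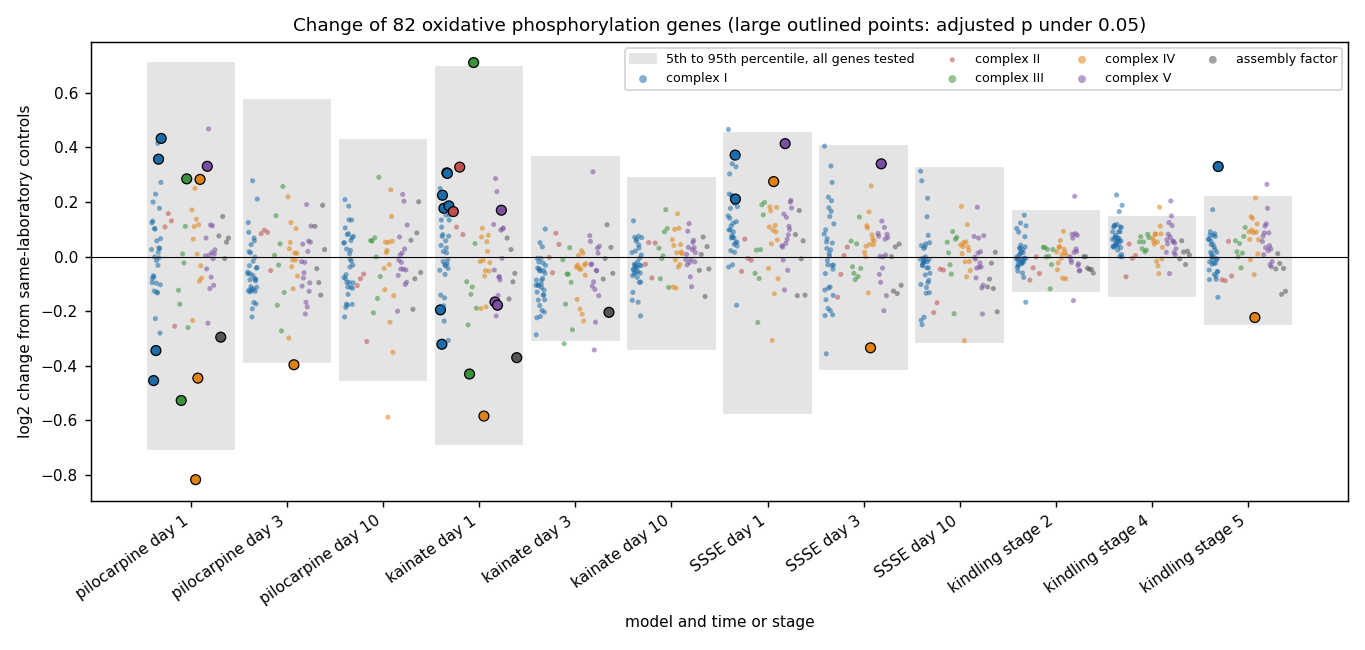
Change of every tested member from the controls of its own laboratory, in log2 (vertical axis), for each model and time or stage (horizontal axis), coloured by complex. Large outlined points passed the test, grey boxes span the 5th to 95th percentile of all genes tested, and most members lie well inside the boxes at day 1 of the SE models.

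The members' changes were small as well as few. At day 1 the median size of a member's change, without regard to sign, was 0.11 after pilocarpine and 0.10 after kainate. Over all genes it was 0.22 and 0.21, and over 1642 non-member genes whose mean level was at least the members' lower quartile it was 0.21 and 0.19. A change past 1.5-fold was seen in 1 member after pilocarpine, Cox6b2, and in 1 after kainate, Uqcrfs1, which is 1.22% of the members each time. The share was 14.5% of all genes and 12.7% of the bright genes after pilocarpine, and 13.5% and 11.1% after kainate. These sizes are those of the brightest probe set of each gene, and some other probe sets differed. At day 1 after pilocarpine the other probe set of Atp5po gave -0.60 ± 0.12 (SE), itself past 1.5-fold, where the brightest gave 0.025. For Atp5me the other gave -0.43 ± 0.11 beside -0.117, and for Sdhd 0.365 ± 0.135 beside -0.255. At day 1 after kainate the other probe set of Atp5po gave -0.315 ± 0.078 beside 0.105. The precision would have shown larger changes in most members. The 95% interval of the change lay inside 1.5-fold in either direction for 73 of 82 members after pilocarpine and 76 after kainate, and for 60.7% and 69.9% of all genes. The probe sets with several symbols were fitted without calls. At day 1 after pilocarpine that of Atp5mc2 changed by 0.61 ± 0.21 and the brightest of Cox5a by -0.39 ± 0.11. The rest of them lay between -0.16 and 0.16.

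Over all 12 comparisons of a time or stage with controls, 55 of the 82 members were called in none. The share of 67.1% stands beside 41% of all genes and 36.2% of the bright genes that are no members. Another 20 members were called once and 7 more than once. In simulated data a true log2 change of 0.3 was recovered in 4% to 30% of the changed genes, so small changes can go uncalled. In complex I 24 of 34 genes were never called, in complex II 2 of 4, in complex III 5 of 8, in complex IV 10 of 14, in complex V 11 of 16, and among the assembly factors 3 of 6. Atp5f1a and Atp5f1b, the alternating subunits of the catalytic head of ATP synthase, were among them, with changes of -0.20 to 0.12 and -0.11 to 0.08. So were Cox4i1, a regulatory subunit of cytochrome c oxidase, Cyc1, the cytochrome c1 of complex III, Uqcrc1, one of its core proteins, and Sdhb, the iron-sulfur subunit of complex II. Their changes ran from -0.04 to 0.22 for Cox4i1, -0.12 to 0.06 for Cyc1, -0.14 to 0.07 for Uqcrc1 and -0.17 to 0.16 for Sdhb. Ndufa4, now placed in complex IV, ranged from -0.14 to 0.06, and Cox6a1, the widespread form of its subunit VIa, from 0.00 to 0.17.

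**Figure D2:**
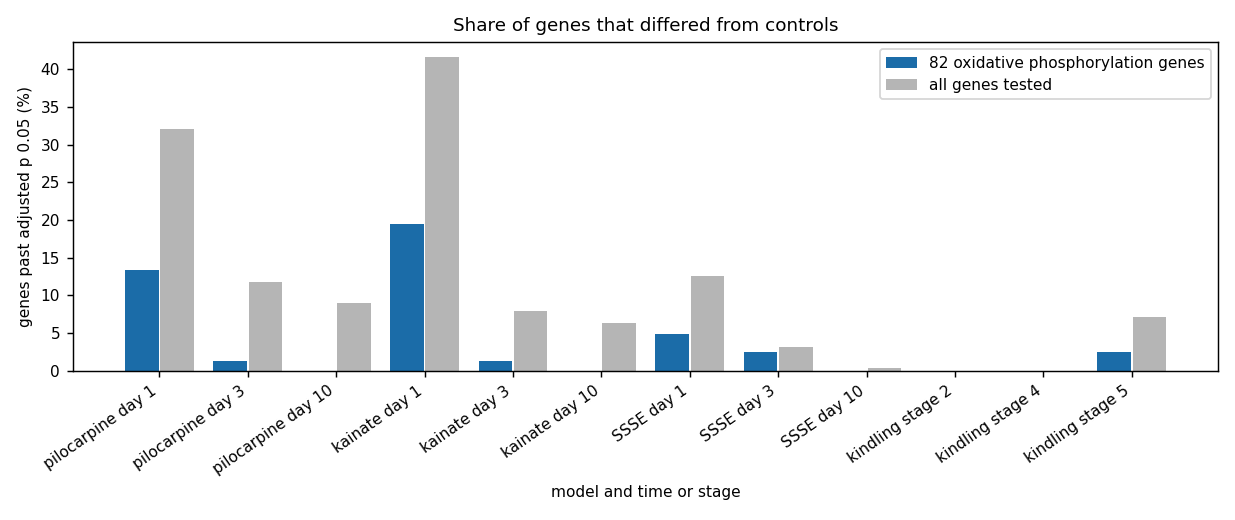
Share of genes called changed in each comparison, in percent (vertical axis), for the 82 members (blue) and for all genes tested (grey). The members' share lies below that of all genes at day 1 of each SE model.

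Uqcrfs1 had the largest rise of any member. It encodes the Rieske iron-sulfur protein of complex III, which takes the first electron from ubiquinol. In kainate laboratory A its log2 level had a lowest, median and highest value of 9.41, 9.80 and 10.22 at day 1, against 9.01, 9.30 and 9.59 in controls. In laboratory B the values were 8.75, 9.00 and 9.37 at day 1, against 7.79, 8.11 and 8.45 in controls. The groups of laboratory B did not overlap, and in laboratory A they overlapped in part, so that 10 of 12 day 1 rats lay above all controls of their own laboratory. The change was 0.71 ± 0.10 (SE, 12 rats each), or 164% of control, with a limma adjusted p of 3.48e-08. It was 0.50 in laboratory A and 0.92 in laboratory B, and the test of the difference between laboratories gave an adjusted p of 0.55. At day 3 the change was 0.03 and at day 10 it was 0.17, with adjusted p of 0.905 and 0.316.

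The other models showed no such rise of Uqcrfs1 past the threshold. Pilocarpine laboratory A gave 8.34, 8.71 and 9.16 at day 1, against 7.94, 8.48 and 8.85 in controls, and laboratory B 7.80, 8.22 and 8.80, against 8.19, 8.37 and 8.49. Day 1 rats and controls overlapped in both laboratories, and the change was 0.11 ± 0.13 with an adjusted p of 0.552. In SSSE the day 1 values were 9.45, 9.77 and 10.25, against 9.38, 9.51 and 10.17 in controls, a change of 0.19 with an adjusted p of 0.419. Leaving out 1 rat in turn gave 0.10 without day 1 rat 4 to 0.33 without control rat 5, which had the 10.17, with adjusted p of 0.666 and 0.132. In an F-test of the day 1 changes across the 3 SE models, Uqcrfs1 was the member that passed, with F = 8.203 and an adjusted p of 0.0189, where 5.72% of all genes passed. Model and laboratory cannot be told apart there. The ratio of 3' to 5' Gapdh signal, a sign of RNA quality, was lower in kainate laboratory A at day 1, at a mean log2 of 1.12 against 1.52 in controls, and 1.47 against 1.66 in laboratory B. With that ratio in the fit, Uqcrfs1 was still called.

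**Figure D3:**
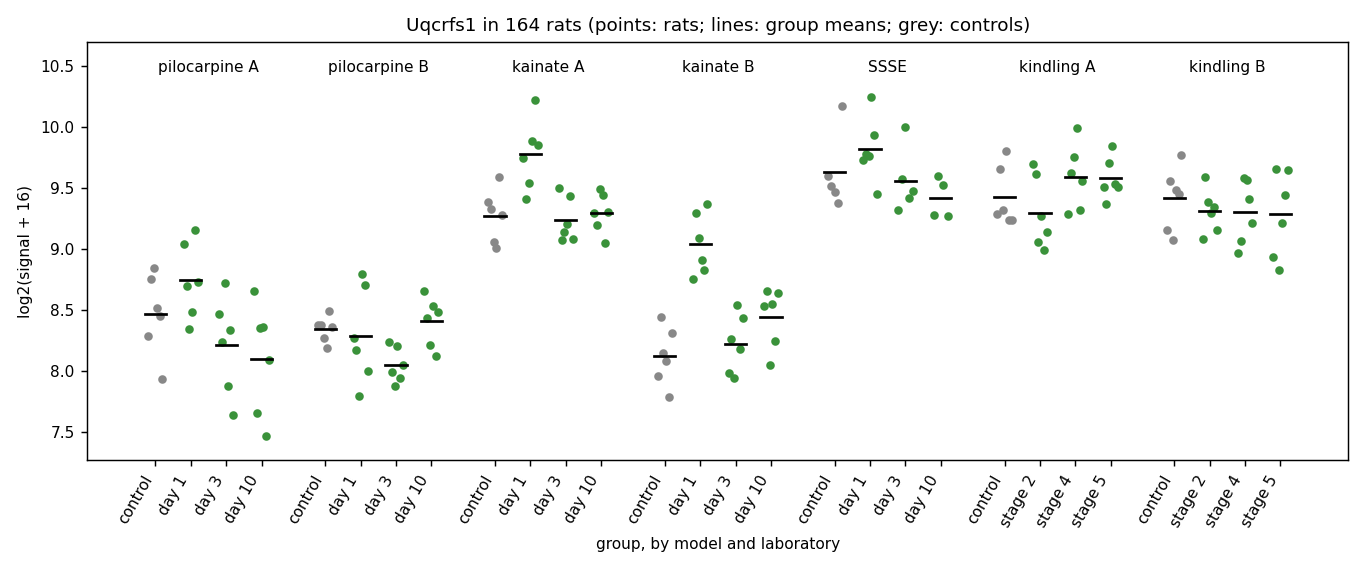
Log2 level of Uqcrfs1 in every rat, by model, laboratory and time or stage. Each point is a rat, each line a group mean and grey points are controls, and the day 1 rats of kainate laboratory B all lie above their controls.

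Ndufc2 rose at day 1 in all SE models. It is an accessory subunit of the membrane arm of complex I. After pilocarpine its lowest, median and highest log2 levels were 10.70, 11.02 and 11.63, against 10.41, 10.72 and 11.13 in controls. After kainate they were 10.97, 11.18 and 11.78, against 10.57, 11.00 and 11.30. In both models the pooled ranges overlapped, but 7 of 12 and 11 of 12 day 1 rats lay above all controls of their own laboratory. In SSSE the day 1 rats had 10.43, 10.74 and 11.01, and the 5 controls had 10.35, 10.40, 10.34, 10.38 and 10.26, with no overlap. The changes were 0.36 ± 0.12, 0.31 ± 0.07 and 0.37 ± 0.09 (SE), with limma adjusted p of 0.0222, 0.000308 and 0.012. By day 10 they were -0.11, 0.03 and -0.02, none past the threshold, and none of the 3 kindling stages gave a call.

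Among the other complex I genes, Ndufs3, a core subunit at the junction of the arms, rose after kainate. Its values were 9.28, 10.00 and 10.21 at day 1, against 9.14, 9.67 and 10.01 in controls, overlapping ranges with a change of 0.31 (adjusted p = 0.00595). Ndufv1, the core subunit that binds FMN and NADH, rose by 0.19 (adjusted p = 0.0167), and Ndufa8 and Ndufb11, accessory subunits, by 0.23 and 0.18. These calls of Ndufv1, Ndufa8 and Ndufb11 were lost with the Gapdh ratio in the fit. Ndufs1, the largest core subunit with several iron-sulfur clusters, rose in SSSE at day 1. It had 9.24 to 9.39 with a median of 9.29 in day 1 rats, and 9.01, 9.08, 9.11, 9.09 and 9.17 in controls, groups that did not overlap, with a change of 0.21 and a limma adjusted p of 0.0456. Its call was lost in 9 of the 11 fits that left out 1 control or day 1 rat, at adjusted p of 0.0539 to 0.1.

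Ndufa6 was the complex I gene with the largest fall. It is a small LYR-motif subunit that holds the mitochondrial acyl carrier protein. After pilocarpine it had 8.20, 8.67 and 8.88 at day 1, against 8.64, 9.00 and 9.74 in controls. After kainate it had 8.04, 9.16 and 9.63, against 8.80, 9.30 and 9.77. The ranges overlapped in both, with 10 of 12 rats below their laboratory's controls after pilocarpine and 4 of 12 after kainate. The changes were -0.45 ± 0.12 and -0.32 ± 0.11 (limma adjusted p = 0.00335 and 0.0139), and 0.10 in SSSE. Ndufb2, an accessory subunit, fell by 0.34 after pilocarpine (adjusted p = 0.0205), and Ndufa12, an accessory subunit of the matrix arm, by 0.20 after kainate (adjusted p = 0.0419), a call lost with the Gapdh ratio in the fit.

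The probe sets of Ndufv3, an accessory subunit beside the FMN site, disagreed. The brighter one had 8.16, 8.82 and 9.39 at day 1 after pilocarpine, against 7.93, 8.38 and 9.09 in controls, an increase of 0.43 (adjusted p = 0.0163) with overlapping ranges. At kindling stage 5 it had 7.95, 8.27 and 8.70, against 7.43, 7.99 and 8.53, and rose by 0.33 (adjusted p = 0.0396). The dimmer probe set changed by -0.58 ± 0.13 (SE) at day 1 after pilocarpine and by -0.41 ± 0.09 at kindling stage 5. No direction for the gene as a whole can be taken from them.

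Complex II, which also serves the citric acid cycle as succinate dehydrogenase, had 2 of its 4 genes called, both after kainate. Sdhc, a membrane anchor, had 9.06, 9.90 and 10.18 at day 1, against 8.72, 9.38 and 10.03 in controls, and rose by 0.33 ± 0.10 (adjusted p = 0.00764). The ranges overlapped, and 7 of 12 rats lay above the controls of their laboratory. Sdha, the flavoprotein that oxidises succinate, rose by 0.17 (adjusted p = 0.0431), a call lost with the Gapdh ratio in the fit, with all 28 groups in 1 fit and with quantile normalization. After pilocarpine none of the 4 was called by limma.

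In complex III, Uqcr11, one of its smallest subunits, fell in the same comparisons. It had 11.12, 11.38 and 11.81 at day 1 after pilocarpine, against 11.37, 11.92 and 12.73 in controls, and 10.94, 11.35 and 11.85 after kainate, against 11.44, 11.67 and 12.59. In each model 7 of 12 day 1 rats lay below all controls of their laboratory. The changes were -0.53 ± 0.14 and -0.43 ± 0.12 (limma adjusted p = 0.00298 and 0.00247), and -0.24 in SSSE with an adjusted p of 0.0666. Uqcrh, the acidic hinge protein that helps cytochrome c dock, rose by 0.29 after pilocarpine (adjusted p = 0.0349), with 1 of 12 rats above its controls.

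Complex IV held the largest fall of all members. Cox6b2 encodes a form of subunit VIb known mainly from testis, and its probe set was dim in these cells. After pilocarpine it had 4.14, 5.39 and 5.99 at day 1, against 5.70, 5.96 and 6.60 in controls. After kainate it had 4.74, 5.21 and 5.93, against 5.62, 5.84 and 6.26. In both models 9 of 12 day 1 rats lay below all controls of their laboratory. The changes were -0.82 ± 0.21 and -0.58 ± 0.12 (limma adjusted p = 0.0023 and 7.57e-05), and -0.31 in SSSE with an adjusted p of 0.0716. The widespread form Cox6b1 was called in no comparison, with changes of -0.04 to 0.25.

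**Figure D4:**
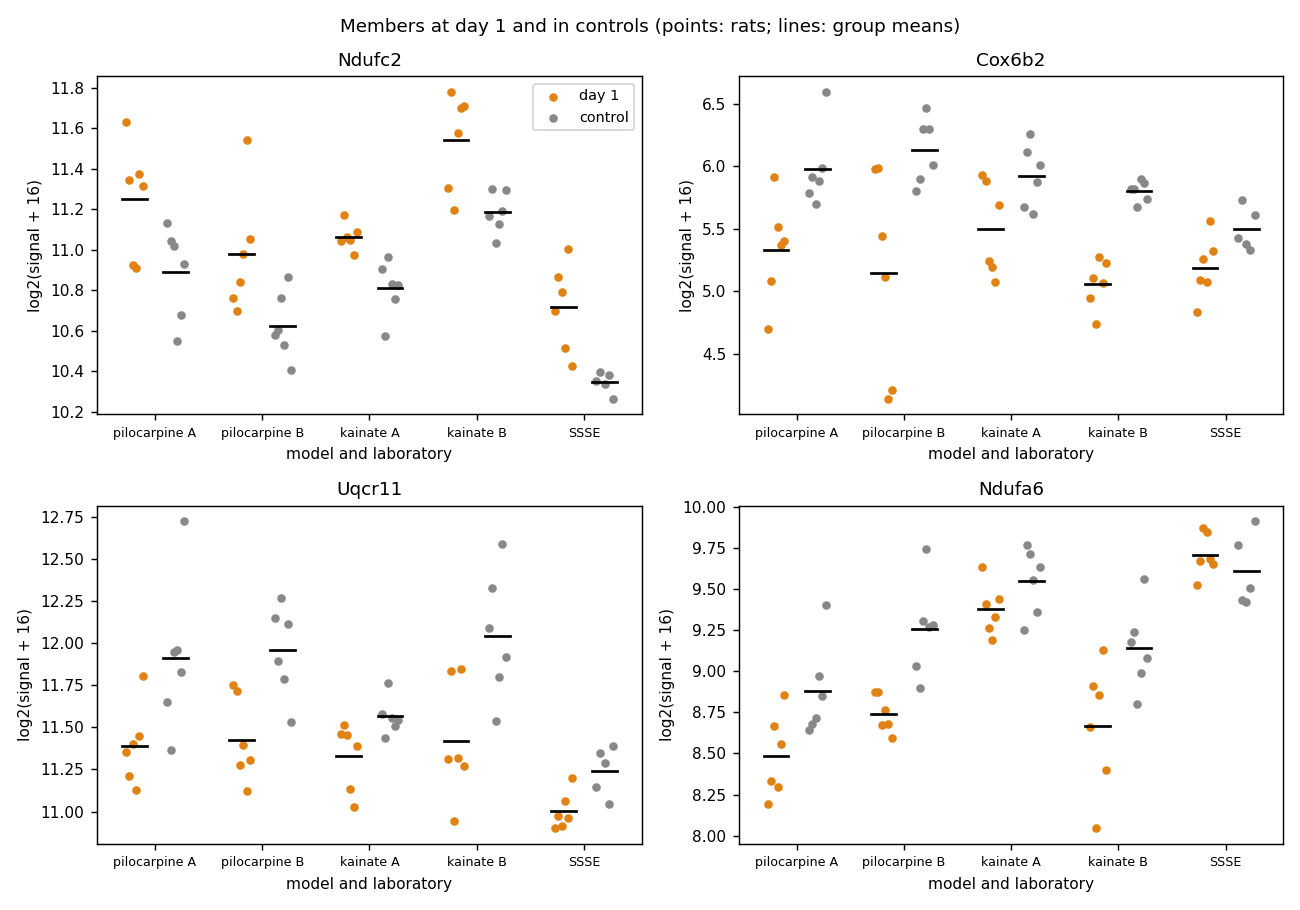
Log2 levels of Ndufc2, Cox6b2, Uqcr11 and Ndufa6 in every rat at day 1 and in the controls of the same laboratory, in the SE models. Each point is a rat, orange at day 1 and grey in controls, and lines are group means. Ndufc2 lies higher at day 1 while Cox6b2 and Uqcr11 lie lower after pilocarpine and kainate.

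Cox7a1, the form of subunit VIIa best known from heart and skeletal muscle, was called lower most often, in 4 comparisons. It had 5.17, 5.64 and 6.09 at day 1 after pilocarpine, against 5.46, 6.06 and 6.65 in controls, a change of -0.45 ± 0.12 (adjusted p = 0.00361), and -0.40 at day 3 (adjusted p = 0.0235). In SSSE at day 3 it had 5.21, 5.22, 5.06, 5.29 and 5.01, against 5.54, 5.52, 5.43, 5.63 and 5.34 in controls, with no overlap and a change of -0.33 (limma adjusted p = 0.0433). The SSSE call was lost in 7 of the 10 fits that left out 1 control or day 3 rat. It was also lost with all 28 groups in 1 fit, with a term for the rat number, and without the rats of low correlation with their group. The limma adjusted p were then 0.282, 0.11 and 0.1. At kindling stage 5 it had 5.15, 5.39 and 5.64, against 5.38, 5.63 and 5.86, a change of -0.22 ± 0.06 (adjusted p = 0.0255). The change was of like size in both kindling laboratories, at -0.22 and -0.23, but the stage 5 call was lost with all 28 groups in 1 fit (limma adjusted p = 0.338). After kainate at day 1 laboratory A gave 0.06 and laboratory B -0.42. Its level was dim, above the array median in 69 of 164 rats.

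The forms of complex IV subunits that other tissues favour were otherwise near the bottom of the array. Cox4i2, known from lung, Cox6a2 and Cox8b, known from heart and muscle, Cox7b2, known from testis, and Ndufa4l2, known as a gene that hypoxia induces, lay above the array median in 0 to 3 rats and were not tested. Their mean log2 levels were 4.27 to 4.90. Cox7c, a small structural subunit, rose by 0.28 after pilocarpine (adjusted p = 0.0242). Cox6c-ps1, annotated as a transcribed pseudogene, rose by 0.28 at day 1 of SSSE (limma adjusted p = 0.0236), and its probe set may also bind the transcript of its functional copy.

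In complex V the one gene with repeated calls was Atp5if1, the inhibitor that stops ATP synthase from running in reverse and consuming ATP. At day 1 of SSSE it had 9.46, 9.54 and 9.75, at day 3 9.53, 9.51, 9.36, 9.54 and 9.51, and in controls 9.29, 8.99, 9.15, 9.15 and 9.17. Neither day overlapped the controls. The changes were 0.41 ± 0.08 and 0.34 ± 0.08 (limma adjusted p = 0.00362 and 0.0303). The day 1 call was kept in each fit that left out 1 rat, and the day 3 call was lost in 6 of 10. With all 28 groups in 1 fit both were lost, at adjusted p of 0.244 and 0.589. After pilocarpine its day 1 change was 0.47, with an adjusted p of 0.0754. The other 2 probe sets of the gene gave 0.06 and 0.17 at day 1 of SSSE, and 0.20 and 0.06 after pilocarpine, so the rise rests on the brightest one.

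The catalytic machine of complex V moved little. Atp5f1d, the delta subunit of the central stalk, rose by 0.33 after pilocarpine (adjusted p = 0.0247). After kainate Atp5f1c, the gamma subunit that turns inside the head, fell by 0.17 (adjusted p = 0.0176, lost with quantile normalization), and Atp5mc3, which encodes the c subunit of the rotor ring, fell by 0.18 (adjusted p = 0.0278). Atp5pb, the b subunit of the peripheral stalk, rose by 0.17 (adjusted p = 0.00863). The calls of Atp5mc3 and Atp5pb were lost with the Gapdh ratio in the fit.

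Of the assembly factors, Ndufaf3 fell by 0.30 at day 1 after pilocarpine (adjusted p = 0.0377), Ndufaf8 by 0.37 at day 1 after kainate (adjusted p = 0.0202), and Ndufaf5, which modifies an arginine of Ndufs7, by 0.20 at day 3 after kainate (adjusted p = 0.00529). The laboratories went apart for Ndufaf8, with -0.56 and 0.69 after pilocarpine and -0.06 and -0.68 after kainate in A and B, and the test of the laboratories passed for no member by limma (0%, 0.00929% and 0% of all genes for pilocarpine, kainate and kindling stage 5).

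After day 1 the calls, which rest on the brightest probe set of each gene, nearly ended. At day 3 no member rose and 1 fell after pilocarpine, beside 11.7% of all genes, 7.74% higher and 3.92% lower. After kainate no member rose and 1 fell, beside 7.96%, 4.66% higher and 3.3% lower. In SSSE 1 rose and 1 fell, beside 3.14%, 1.66% higher and 1.48% lower. Other probe sets of members were fitted without calls. At day 3 after pilocarpine those of Ndufa7, Ndufv3, Atp5po and Atp5me gave -0.56 ± 0.14, -0.43 ± 0.13, -0.36 ± 0.12 and -0.35 ± 0.11. The rest lay between -0.31 and 0.15. At day 10 those of Atp5po and Atp5me gave -0.35 ± 0.12 and -0.34 ± 0.11. After kainate at day 3 that of Ndufv3 gave -0.36 ± 0.10 and the rest -0.12 to 0.13. After kainate at day 3, 65 of the 82 members had a change below 0, or 79.3%, with a median of -0.06, beside 46.7% and 0.01 over all genes. By laboratory there were 40 members below 0 and a median of 0.00 in A, and 69 and -0.14 in B, which was not tested. In laboratory B the median over members, relative to the controls' mean, was 0.32 in control rat 5 and -0.19 to 0.10 in the other controls. Members vary together between rats, so a count of members below 0 is a description and not a count of independent results. At day 10 no member was called by limma in any SE model, beside 8.93% of all genes after pilocarpine (3.82% higher, 5.11% lower), 6.28% after kainate (2.57% and 3.71%) and 0.344% in SSSE (0.177% and 0.167%). With all 28 groups in 1 fit 6 members were called at day 3 and 8 at day 10 after pilocarpine, and with the first array only 2 at each. No share of all genes is given for those fits. In kindling none was called at stage 2 or stage 4, where 0% of all genes were called. At stage 5, 1 rose and 1 fell, Ndufv3 and Cox7a1, beside 7.1% of all genes, 3.23% higher and 3.87% lower. At stage 4, 10 of the 82 changes were below 0, or 12.2% beside 47.9% of all genes. The median change was 0.06, beside 0.02 over the bright genes that are no members and 0.005 over all genes. In laboratory A 11 members were below 0 and in laboratory B 27, again counts of members that vary together.

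Direct tests between days gave 3 members lower at day 10 than at day 1 after pilocarpine (15.9% of all genes called): Ndufc2, Ndufb11 and Ndufv2, by 0.47, 0.34 and 0.37. Ndufv2 is a core subunit with an iron-sulfur cluster. Without the 3 pilocarpine day 10 rats that correlated least with their groups, none of the 3 passed, with adjusted p of 0.0531 to 0.171. After kainate 10 members differed (33% of all genes), of which 7 were lower at day 10. Uqcrfs1 was lower by 0.54 (adjusted p = 1.43e-05), Sdhc by 0.41, Ndufs3 by 0.34 and Ndufc2 by 0.28, while Cox6b2 was higher by 0.47 (adjusted p = 0.00165). In SSSE 4 were lower at day 10 (5.85% of all genes): Atp5pd, a subunit of the peripheral stalk, by 0.41, Ndufc2 and Ndufa5, an accessory subunit, by 0.39 each, and Ndufa13, another, by 0.33. All 4 calls were lost without day 1 rat 2 or 3, or without day 10 rat 1, 3 or 6. Between kindling stages 5 and 2 no member differed by limma, with 2.65% of all genes called.

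What the members shared most was their variation between rats of the same group. After group means were removed, each member was correlated over the 164 rats with the median of the other members. The median Pearson r over the 82 members was 0.57, beside 0.00 for other genes and 0.08 for bright ones. Single genes that are no members reached an r of 0.861, as high as any member, so the variation was not confined to the members. These are descriptions, since the values share arrays and RNA quality. By complex the median r was 0.62 in complex I, 0.72 in III, 0.54 in IV and 0.58 in V, but 0.11 in complex II and 0.02 among the assembly factors. Ndufb2, a small accessory subunit, had the highest r of 0.86, followed by Cox6a1 with 0.83 and Atp5f1e, the epsilon subunit of the central stalk, with 0.80. Among the lowest were Ndufaf4 with -0.24, Atp5if1 with -0.23, Atp5f1a with -0.13, Ndufs1 with -0.12, Sdha with -0.11 and Uqcrfs1 with -0.05.

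**Figure D5:**
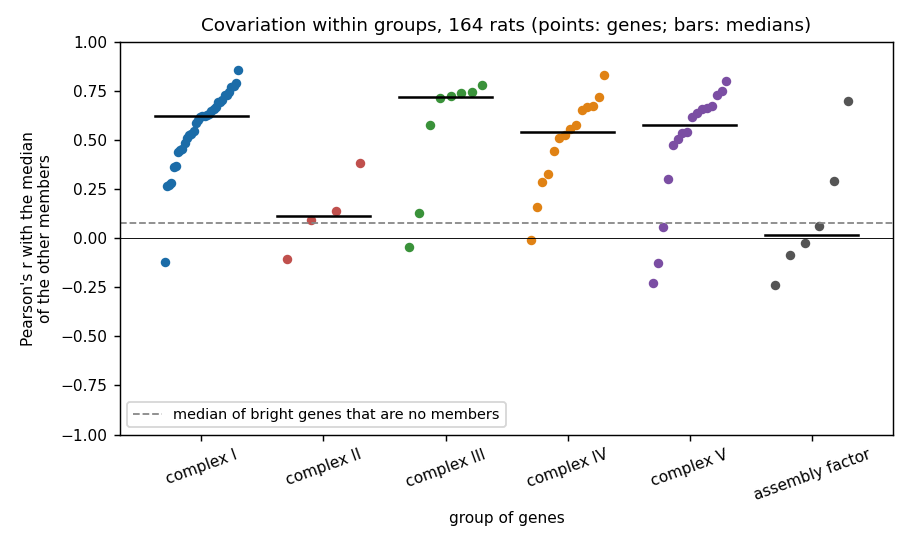
Pearson r over 164 rats between each member and the median of the other members, with group means removed, by complex. Each point is a gene, each bar a median, and the dashed line is the median of bright genes that are no members. Most genes of complexes I, III, IV and V lie well above 0, while complex II and the assembly factors have medians near it.

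This common level of the members overlapped between each time or stage and its controls. The median over members, relative to the controls' mean, ran from -0.04 to 0.17 in the day 1 rats of SSSE and from -0.10 to 0.11 in their controls. After kainate in laboratory B it ran from -0.32 to 0.11 at day 1 and -0.19 to 0.32 in controls, where 2 of 6 rats at day 1 and 3 of 6 at day 10 lay below all controls. By the median of all genes, 1 of 6 rats at day 1 and 4 of 6 at day 10 did. In kainate laboratory A and both pilocarpine laboratories no day 1 rat lay below its controls. In kindling laboratory A it ran from 0.01 to 0.24 at stage 4 and -0.06 to 0.19 at stage 5, against -0.03 to 0.03 in controls, and 5 of 6 rats at each stage lay above all controls. In kindling laboratory B no stage 4 or stage 5 rat did. By the median of the bright genes that are no members, 3 of 6 rats at stage 4 and 4 of 6 at stage 5 of laboratory A lay above all controls. By the median of all genes, 2 and 1 did, so the shift in laboratory A was in part shared by other bright genes.

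RefSeq promoters were read for the members, as 300 bases from 250 before to 50 after the start of the gene, on the GRCr8 build. Of the 87 members 78 matched an entry, and so did 8873 of the other genes tested. Motifs were searched on both strands. They were GCGCANGCG for NRF-1, CCGGAAG for ETS factors such as GABP, AANATGGCG for YY1 and TCAAGGTCA for ERR, factors known from mitochondrial gene promoters. NRF-1 letters were in 24.4% of member promoters and 13.5% of the others, ETS letters in 28.2% and 17.7%, YY1 letters in 24.4% and 6.49%, and ERR letters in 2.56% and 0.214%. At least 1 of the 4 was in 61.5% and 32.1%, while the median GC content was 56% in members and 61.3% in the others. Matches of YY1 and NRF-1 letters may share bases, which those shown do not. A match is a string of letters and not a measured binding site.
The promoters of 4 members follow, 3 of which passed the test at day 1, to show how they differ in these letters, with matches in capitals. Ndufa6 and Uqcrfs1 were chosen after their values were seen. Cox6b2 and Ndufs7 were taken by a rule, for the lowest mean changes over the SE models at day 1 among members with a promoter entry. Cox7a1 was also taken by that rule and is not shown.
Ndufa6, chr7:115750268-115750567, minus strand: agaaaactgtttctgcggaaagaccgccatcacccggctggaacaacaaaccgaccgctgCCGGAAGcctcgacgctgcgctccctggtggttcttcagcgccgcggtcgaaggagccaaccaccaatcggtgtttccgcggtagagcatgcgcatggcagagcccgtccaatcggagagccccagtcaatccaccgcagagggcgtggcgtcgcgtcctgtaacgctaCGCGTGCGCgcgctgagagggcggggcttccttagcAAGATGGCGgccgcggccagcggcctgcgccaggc
Ndufs7, chr7:10110449-10110748, minus strand: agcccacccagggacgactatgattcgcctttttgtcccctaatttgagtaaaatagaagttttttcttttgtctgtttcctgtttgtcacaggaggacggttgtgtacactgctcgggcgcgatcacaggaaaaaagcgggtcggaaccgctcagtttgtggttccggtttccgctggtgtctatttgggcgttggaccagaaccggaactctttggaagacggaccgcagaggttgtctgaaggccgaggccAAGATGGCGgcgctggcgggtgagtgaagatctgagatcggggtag
Cox6b2, chr1:78122621-78122920, plus strand: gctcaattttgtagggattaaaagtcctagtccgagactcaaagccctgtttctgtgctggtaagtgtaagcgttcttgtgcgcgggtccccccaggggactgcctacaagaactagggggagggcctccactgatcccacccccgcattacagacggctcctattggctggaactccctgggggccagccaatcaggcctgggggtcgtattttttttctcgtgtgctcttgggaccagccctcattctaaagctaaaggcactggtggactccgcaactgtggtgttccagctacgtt
Uqcrfs1, chr17:34186352-34186651, plus strand: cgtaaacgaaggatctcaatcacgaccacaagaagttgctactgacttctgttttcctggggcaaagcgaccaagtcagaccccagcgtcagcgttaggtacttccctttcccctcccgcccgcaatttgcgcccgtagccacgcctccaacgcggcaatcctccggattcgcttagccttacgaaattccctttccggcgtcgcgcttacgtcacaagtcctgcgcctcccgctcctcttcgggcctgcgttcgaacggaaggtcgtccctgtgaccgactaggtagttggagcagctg
Ndufa6 was the single member with 3 kinds of match, ETS at base 61, NRF-1 at base 230 and YY1 at base 266, counted from the first base shown. Ndufs7, a core subunit near the ubiquinone site whose own changes passed in no comparison, holds YY1 letters at base 255. Cox6b2 and Uqcrfs1, the largest fall and the largest rise, hold none of the 4, and neither do Ndufc2 and Cox7a1.

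Genes around the complexes give the surroundings of these values. Of 15 tested genes of the citric acid cycle and the pyruvate dehydrogenase complex, 2 rose and none fell after pilocarpine at day 1. After kainate 5 rose and none fell, and the shares of all genes called were 32.1% and 41.6%. Dld and Pdhx, components of the pyruvate dehydrogenase complex, rose by 0.50 and 0.49 after kainate, with adjusted p of 0.00128 and 6.77e-06. Of 17 tested genes of glycolysis, 6 rose and 3 fell after pilocarpine, and 9 rose and 2 fell after kainate. At day 1 of SSSE 2 rose and 2 fell, and 5 rose at kindling stage 5, where 12.5% and 7.1% of all genes were called. Slc2a3, the neuronal glucose transporter, rose by 0.97, 0.79, 0.47 and 0.33 in these comparisons, and Eno1, an enolase, by 0.66, 0.74, 0.53 and 0.29. Aldoc, an aldolase that is also an astrocyte marker, fell by 1.18, 0.90 and 0.80 at day 1, and of the 10 astrocyte markers tested 6, 6 and 4 fell and 1 rose each time. The one that rose was Gfap, an intermediate filament of astrocytes, by 1.10, 1.96 and 1.32. Of 13 regulators of mitochondrial genes, 2 fell after pilocarpine, 3 rose and 5 fell after kainate, and 1 fell in SSSE. Esrrg, an estrogen-related receptor, fell by 1.35 after pilocarpine and 0.69 after kainate, and Ppargc1a, which encodes the coactivator PGC-1 alpha, rose by 0.49 after kainate.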

How the data were processed

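The 172 one-colour Affymetrix arrays held RNA of captured granule cells from 164 rats in 28 groups and 7 laboratories. Each deposited value is an array signal intensity on a linear scale, and MAS5 is named per the submitters' processing notes, with no version. Tested on the deposited values, every array had been scaled to a trimmed mean of 150.04 to 150.06, leaving out 2% of probe sets at each end. Per the labels, RNA had an integrity number above 7 and at least 10 ng was pooled per rat from 10 µm sections.

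Of 31099 probe sets, 57 were array controls, 20826 carried 1 symbol, 436 several and 9780 none. Only those with 1 symbol entered the tests; 7 with several symbols matched the members' names and were left out. A probe set was kept if above its array's median in at least 6 rats, and the brightest represented its gene. The 8 rats with 2 arrays entered as the mean of both (r = 0.946 to 0.995). Most were controls of pilocarpine laboratory A, whose 6 control rats had 11 arrays, against 6 arrays for its 6 rats at each day. Values were log2(signal + 16).

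Each model was fitted with limma 3.58.1 in R 4.3.3, with 1 mean per group. Each time or stage was compared with controls of its own laboratory, weighting laboratories equally, with Benjamini-Hochberg adjustment over all genes. The fit was tested on simulated data with the spread of each model, for day 1 of pilocarpine, kainate and SSSE and day 10 of SSSE. A true log2 change of 0.3 was recovered in 4%, 30%, 8% and 14% of the changed genes. One of 0.6 was recovered in 68%, 78%, 76% and 70%. Comparisons within a model share its controls. Errors are standard errors, n counts rats, and the number of arrays limits the precision. Median signal and the 3' to 5' ratio of Gapdh were read as array checks. Alternatives changed the pseudocount, filter, normalization, groups in the fit, repeated arrays, doubted rats, a Gapdh covariate, a term for the rat number, and single SSSE rats. Members and lists were chosen with earlier results of these data known. Named genes were the up to 8 largest rises and falls past the threshold in each comparison, the up to 5 smallest p of each difference test, a short list of core genes, and up to 3 changed genes of each other list. Protein sequences were not used here.

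In 2 rats the labels disagreed. SSSE day 1 rat 3 is day 1 by title and control by harvest time, and kindling laboratory A stage 2 rat 4 is kainate by title and kindling by laboratory and stage. Each was kept by title for time and by laboratory for model. Promoters came from RefSeq. Plots were drawn with matplotlib 3.10.9, numpy 2.4.6 and pandas 2.3.3 in Python 3.11.15, and tables read with the package data.table (version 1.17.8).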

Additional observations from a re-analysis of the deposited data

Results flagged for a closer look

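Outlying rats were looked for in 252 sets of 4 to 6 rats, those of 8 named members and of the median over members in each of the 28 groups. In these, 10 stood apart, a smaller share than the 1 in 20 or so that chance gives. In kindling laboratory B, control rat 1 had 11.14 for Ndufc2 (the others 10.56 to 10.74) and 11.71 for Uqcr11 (11.35 to 11.43). SSSE control rat 5 had 10.17 for Uqcrfs1 (9.38 to 9.60). Pilocarpine laboratory A control rat 6 had 6.60 for Cox6b2 (5.70 to 5.99), and SSSE day 10 rat 6 had 4.97 (5.25 to 5.27). Kindling laboratory A stage 4 rat 1 had 10.28 for Ndufa6 (9.70 to 9.87) and 9.18 for Atp5if1 (9.84 to 10.03). Atp5if1 was also apart in kainate laboratory A control rat 6 with 9.04 (9.54 to 9.81), in pilocarpine laboratory B day 1 rat 3 with 8.42 (9.54 to 9.93) and in SSSE day 3 rat 4 with 9.36 (9.51 to 9.54).

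Day 1 and day 10 differed by the direct test for 3 members after pilocarpine, 10 after kainate and 4 in SSSE. After pilocarpine the day 10 minus day 1 differences were -0.47 for Ndufc2, -0.34 for Ndufb11 and -0.37 for Ndufv2. After kainate they were -0.54 for Uqcrfs1, -0.41 for Sdhc, -0.28 for Ndufc2, 0.47 for Cox6b2 and -0.34 for Ndufs3. In SSSE they were -0.39 for Ndufc2, -0.39 for Ndufa5, -0.41 for Atp5pd and -0.33 for Ndufa13. Across the SE models at day 1, 1 member differed, Uqcrfs1, with F = 8.203.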

How the results depend on the processing

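Adding 1 in place of 16 before log2 and quantile normalization moved no count of called members by over 1.5 times, and no alternative reversed a named member. With all 28 groups in one fit, the called members were 20, 6 and 8 at days 1, 3 and 10 after pilocarpine, 1 and 0 at days 1 and 3 of SSSE, 0 at kindling stage 5, 2 for the laboratories of pilocarpine, 17 for pilocarpine day 10 against day 1, and 1 for SSSE day 10 against day 1. Rat numbers are no pairs by the labels, and 50 of 164 rats were nearest to a rat of their own number. With a replicate block the counts were 2 at pilocarpine day 3, 0 at SSSE day 3, 4 at kindling stage 5 and 0 for SSSE day 10 against day 1. With the first array only, they were 2 at pilocarpine day 3 and 2 at day 10. With no filter, kindling stage 5 had 1. With the Gapdh ratio in the fit, kainate day 1 had 9 and SSSE day 10 against day 1 had 0. Without 5 rats of low correlation with their group (1 of kainate laboratory B day 10, 3 of pilocarpine day 10, 1 of SSSE day 3), SSSE day 3 had 1 and pilocarpine day 10 against day 1 had 0. Leaving out each SSSE rat in turn gave 2 to 11 called members at SSSE day 1 (2 without control rat 3 or day 1 rat 3, 11 without day 1 rat 6), 0 to 3 at day 3 (0 without control rat 2, 3 or 4 or day 3 rat 3 or 6, 1 without control rat 1 or day 3 rat 4 or 5), 0 at day 10 each time, and 0 to 8 for day 10 against day 1 (0 without day 1 rat 2 or 3 or day 10 rat 1, 3 or 6, 2 without day 1 rat 5, 8 without day 1 rat 6). The causes were not tested. All these counts are given without the share of all genes called in the same fit, so they describe the members alone. The median change over the members kept its place within the spread under every alternative run. Leaving out kindling laboratory A stage 2 rat 4, an alternative added after the data were seen, moved no count. Small changes in dim probe sets are limited by signal over background.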

Other observations

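One assembly factor outside the members' names changed more than any member. Nubpl encodes a protein that delivers iron-sulfur clusters to complex I, and it was measured by 1 probe set. At day 1 its log2 level had a lowest, median and highest value of 8.83, 9.70 and 9.93 in pilocarpine laboratory A, against 6.89, 7.41 and 7.99 in controls, and 7.96, 8.67 and 9.89 in laboratory B, against 6.72, 7.14 and 7.30. After kainate it had 8.42, 8.56 and 9.08 in laboratory A, against 6.30, 6.95 and 7.21, and 8.73, 9.68 and 10.22 in laboratory B, against 7.42, 8.14 and 8.34. In none of these 4 laboratories did the groups overlap. The changes were 1.94 ± 0.18 and 1.65 ± 0.16 (SE, limma adjusted p = 2.49e-11 and 1.84e-11).

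Nubpl also rose in SSSE at day 1, by 0.93 (limma adjusted p = 0.0145), with 7.06, 7.42 and 8.64 against 6.26 to 7.11 in controls, ranges that just overlapped. It was still higher at day 3 in all SE models, by 1.38 after pilocarpine, 0.88 after kainate and 1.20 in SSSE, at day 10 after pilocarpine by 1.18 (adjusted p = 1.71e-05), and at kindling stage 5 by 0.36 (adjusted p = 0.0472). Of the 27 tested factors on the list of other assembly factors, 3 rose and 4 fell after pilocarpine at day 1, 6 rose and 6 fell after kainate, and 1, Nubpl, rose in SSSE, beside 32.1%, 41.6% and 12.5% of all genes called.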
